A study of Arabidopsis thaliana with 6 samples.

Results

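Cytosolic ribosomal proteins of the small (40S) subunit were examined in shoots of Arabidopsis thaliana seedlings that overexpress KLU. The genes were taken from a fixed list of 60 loci for 25 proteins, and a locus counted as measured where a probe set of the array was paired with that gene alone. Of the 60 loci, 33 were measured, each by 1 probe set, out of 13355 genes measured on the arrays. They stand for 17 of the 25 proteins. Another 12 loci lie on probe sets paired with several genes and 15 have no listed probe set, and these 27 were not analysed gene by gene here. The proteins none of whose listed loci was measured alone included RPSa, RPS6, RPS15, RPS15a, RPS16, RPS18 and RPS23.

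The arrays compared 35S::KLU, a line that carries the KLU gene behind the cauliflower mosaic virus 35S promoter, with the wild type (WT), both in the Col-0 accession. KLU encodes CYP78A5, a cytochrome P450 that promotes organ growth. Each genotype had 3 arrays from RNA of shoots at growth stage 1.03, labelled as biological replicates, and each sample pooled 5 seedlings. Because the 35S promoter is active in most cells, the line models broad overexpression and not the gene's own pattern, and the number of independent transgenic lines is not given in the sources used here.

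Array medians lay between 6.01 and 6.05 on the log2 scale, and the 3 arrays of a genotype correlated at 0.9952 to 0.9975, against 0.9895 to 0.9931 across genotypes. The 3′ minus 5′ signal of 3 control genes, a measure of RNA integrity, was 1.89 to 1.94 in 35S::KLU and 1.90 to 1.94 in WT. Green tissue markers were bright on all arrays, with a summed log2 level of 15.39 to 15.41 in 35S::KLU and 15.39 to 15.45 in WT over the 4 of 20 that were measured. No probe set is paired with KLU in the annotation, and the transgene's own level was not analysed here.

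The 40S subunit binds the messenger RNA and decodes it, and joins the large (60S) subunit to form the ribosome. It consists of 18S ribosomal RNA and a set of small proteins, one copy of each. In Arabidopsis each of these proteins is encoded by a small family of closely similar genes, called A, B, C and so on, and their transcripts are abundant in growing tissue. Mutants in several of them have narrow, pointed first leaves, which ties the subunit to organ growth. The annotation used here prints only the locus for the measured genes, so the gene names below are the customary ones.

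Small-subunit transcripts were slightly lower in 35S::KLU for nearly every gene measured, and the size of the difference was small. The difference in log2 level, 35S::KLU minus WT, was below 0 for 32 of the 33 genes, with a median of -0.21 (quartiles -0.29 and -0.17), which is a 1.16-fold lower level. Over all 13355 genes the median was -0.02 (quartiles -0.10 and 0.07), and 55.5% lay below 0. After adjustment over all probe sets, 3 genes fell (9.09% of the 33), 0 rose and 30 did not pass, beside 4.27% of all 22746 probe sets called lower and 4.05% called higher (limma, adjusted p of 0.05). The genes that fell included RPS19B and RPS19A. At an unadjusted p of 0.05, 15 of the 33 were lower and 1 was higher, beside 12.4% and 9.3% of all probe sets. The 3 arrays of 35S::KLU all lay below the 3 of WT for 14 genes (42.4%), beside 14.9% of all probe sets, and all above for 0, beside 11.0%.

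Most of these probe sets are bright. The mean log2 level was at least 10 for 25 of the 33. Over all 498 genes that bright the median difference was -0.07 and 63.9% lay below 0. Ribosomal protein genes were 79 of the 498, among them 50 for the 60S subunit, of which 49 lay below 0. Over the other 419 bright genes the median was -0.03 and 57.3% lay below 0, close to the 55.5% of all genes. Among the 1222 probe sets that bright, 7.12% were called lower and 7.94% higher. At an unadjusted p of 0.05 they were 20.0% lower and 14.3% higher, and 23.2% did not overlap with 35S::KLU below WT, against 15.7% with 35S::KLU above.

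**Figure D1:**
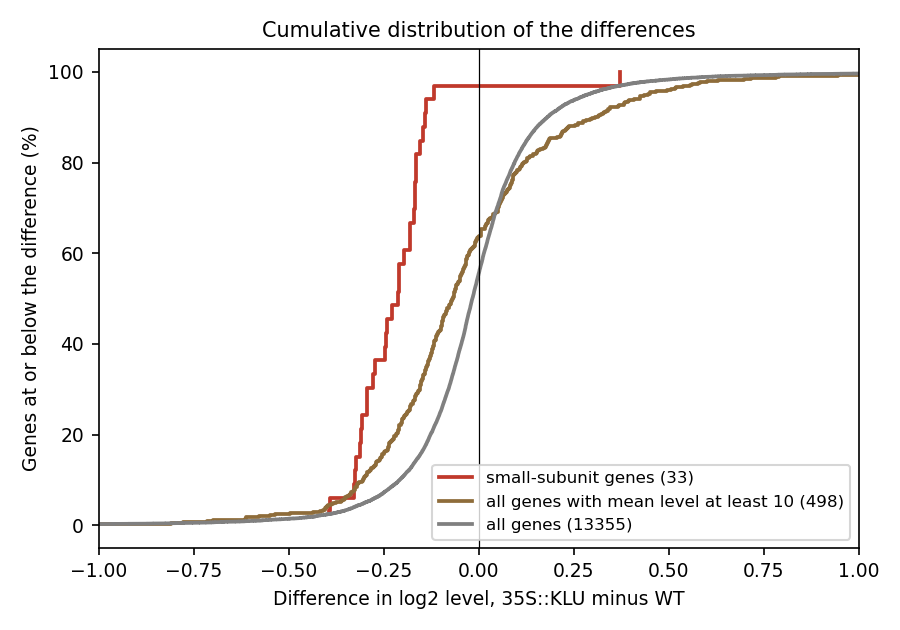
Cumulative share of genes (y axis, percent) at or below each difference in log2 level, 35S::KLU minus WT (x axis), for the 33 small-subunit genes, all 498 genes with a mean level of at least 10, and all 13355 genes. The curve of the small-subunit genes stands to the left of the others, around its median of -0.21, and ends with the single gene above 0.

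RPS19 is a protein of the head of the subunit, and in humans mutations in its gene cause Diamond-Blackfan anaemia. All 3 of its loci were measured. RPS19B (AT5G15520) had log2 levels of 8.18, 8.02 and 7.95 on the 35S::KLU arrays (replicates 1, 2 and 3), against 8.35, 8.32 and 8.44 on the WT arrays. The genotypes did not overlap, and the difference of the means was larger than the SD within either (0.12 in 35S::KLU, 0.06 in WT). It was -0.32 (SE 0.08, 1.25-fold lower, limma adjusted p = 0.039). RPS19A (AT3G02080) had 11.44, 11.38 and 11.29 in 35S::KLU, against 11.62, 11.64 and 11.68 in WT. Its WT arrays were nearly equal, and the difference was -0.28 (SE 0.07, 1.21-fold lower, adjusted p = 0.041). RPS19C (AT5G61170) had 11.30, 10.97 and 10.90 in 35S::KLU, against 11.12, 11.37 and 11.50 in WT. Replicate 1 of 35S::KLU lay above replicate 1 of WT, so the genotypes overlapped, and its difference of -0.27 (SE 0.13, adjusted p = 0.24) did not pass although it was as large as that of RPS19A.

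The calls of these RPS19 genes depended on single arrays. Without 35S::KLU replicate 2, 35S::KLU replicate 3, WT replicate 2 or WT replicate 3 neither passed, with adjusted p between 0.099 and 0.15. Without 35S::KLU replicate 1 RPS19A was lost (adjusted p = 0.051), and without WT replicate 1 both were (adjusted p = 0.061 for RPS19B and 0.058 for RPS19A). Renewed quantile normalization of the values ended both calls (adjusted p = 0.056 for RPS19B and 0.082 for RPS19A), and cyclic loess that of RPS19A (0.066). The direction stayed negative each time, with differences from -0.39 to -0.27 for RPS19B and -0.31 to -0.21 for RPS19A over all alternatives.

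**Figure D2:**
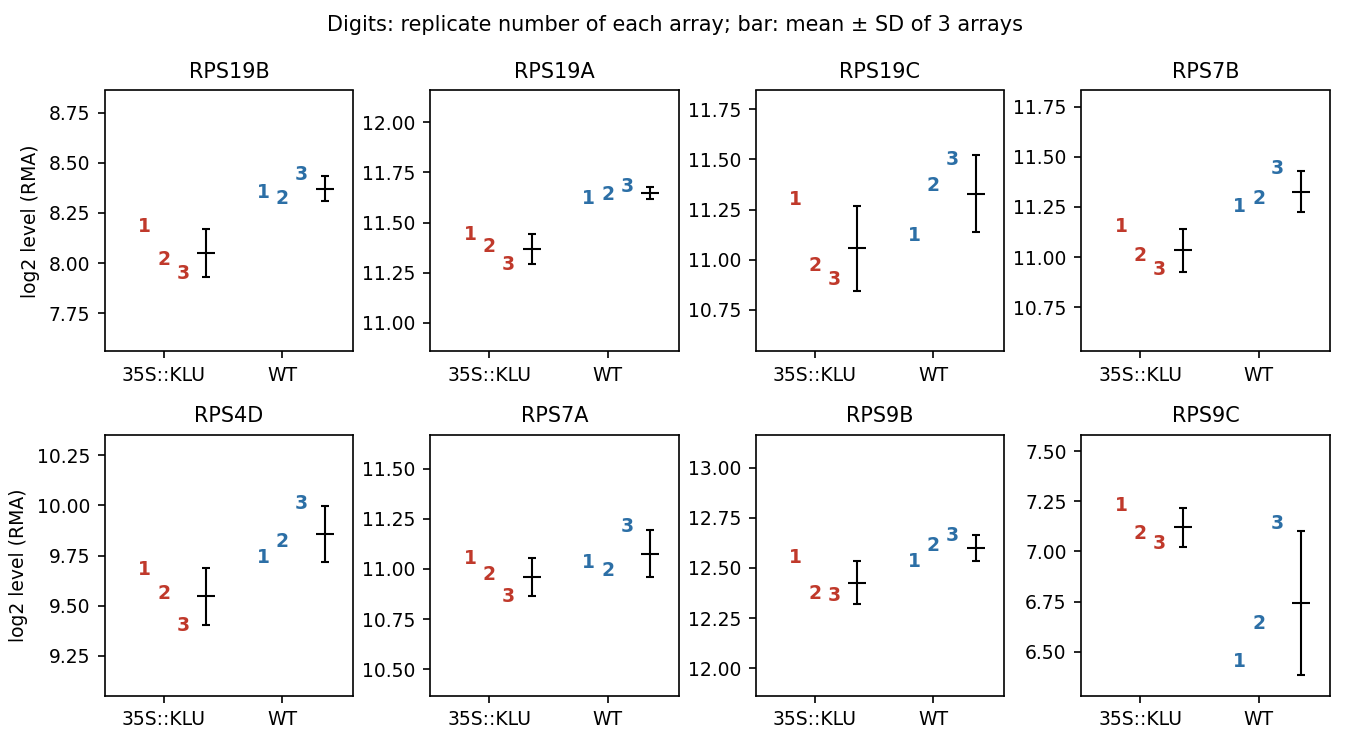
log2 level (y axis) of 8 small-subunit genes on each array, 35S::KLU left and WT right, the digit giving the replicate number and the bar the mean ± SD of 3 arrays. Every panel spans the same range of log2 units. RPS19B, RPS19A, RPS7B and RPS4D do not overlap between genotypes, RPS19C, RPS7A and RPS9B do, and RPS9C, which also overlaps, has the higher mean in 35S::KLU.

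The next genes by unadjusted p had differences of the same size without passing. RPS7B (AT3G02560), for a body protein, had 11.15, 11.01 and 10.94 in 35S::KLU, against 11.25, 11.29 and 11.44 in WT (difference -0.29, adjusted p = 0.067). RPS8B (AT5G59240) had 4.71, 4.42 and 4.43 in 35S::KLU, against 4.77, 4.94 and 4.78 in WT (difference -0.31, adjusted p = 0.082). It was the dimmest of the 33 and the only one below the array medians. RPS4D (AT5G58420) had 9.68, 9.56 and 9.40 in 35S::KLU, against 9.74, 9.82 and 10.01 in WT (difference -0.31, adjusted p = 0.088). The genotypes did not overlap in any of these 3 genes.

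Several proteins of the subunit's head followed. RPS10A (AT4G25740) had 10.22, 10.14 and 10.06 in 35S::KLU, against 10.27, 10.38 and 10.50 in WT (difference -0.24, adjusted p = 0.12). RPS12C (AT2G32060), for a protein of the beak of the head, had 10.33, 10.17 and 10.07 in 35S::KLU, against 10.36, 10.43 and 10.75 in WT (difference -0.33, adjusted p = 0.12). RPS20B (AT3G47370) had 10.42, 10.26 and 10.10 in 35S::KLU, against 10.44, 10.51 and 10.76 in WT (difference -0.31, adjusted p = 0.13). In all 3 genes the genotypes did not overlap, but the highest 35S::KLU array (replicate 1) came close to the lowest WT array (replicate 1). RPS2D (AT3G57490), whose protein lies at the entry of the messenger RNA channel, had 7.70, 7.70 and 7.33 in 35S::KLU, against 7.71, 7.90 and 8.10 in WT (difference -0.33, adjusted p = 0.16). RPS7C (AT5G16130) had 11.70, 11.49 and 11.35 in 35S::KLU, against 11.71, 11.73 and 11.83 in WT (difference -0.25, adjusted p = 0.17). In RPS2D and RPS7C too the highest 35S::KLU value nearly equalled the lowest WT value.

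RPS9C (AT5G39850) was the 1 gene with a positive difference. RPS9 is a body protein near the messenger RNA entry and in yeast affects the accuracy of decoding. RPS9C had log2 levels of 7.23, 7.09 and 7.04 in 35S::KLU, against 6.45, 6.64 and 7.14 in WT. The 35S::KLU arrays were close together and WT replicate 3 lay among them, while WT replicates 1 and 2 were lower (difference 0.37, SE 0.15, unadjusted p = 0.034, adjusted p = 0.19). Without WT replicate 3 the difference was 0.57 and passed (limma adjusted p = 0.01), the only 1 of its 15 alternative fits in which it did. It was 0.23 without WT replicate 1 (adjusted p = 0.39) and 0.32 without 35S::KLU replicate 1 (adjusted p = 0.35). Its paralog RPS9B (AT5G15200) had 12.55, 12.37 and 12.36 in 35S::KLU, against 12.53, 12.61 and 12.66 in WT (difference -0.17, SE 0.08, adjusted p = 0.25). The 2 loci of this protein thus had opposite signs, and neither passed over all 6 arrays.

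The 5 genes with the smallest negative differences lay between -0.16 and -0.12. RPS7A (AT1G48830) had 11.05, 10.97 and 10.86 in 35S::KLU, against 11.03, 10.99 and 11.21 in WT (difference -0.12, adjusted p = 0.50). RPS3C (AT5G35530), for a head protein of the messenger RNA entry, had 11.56, 11.54 and 11.48 in 35S::KLU, against 11.60, 11.68 and 11.73 in WT (difference -0.14, adjusted p = 0.29). Its genotypes did not overlap although the difference was small. RPS2C (AT2G41840) had 11.73, 11.64 and 11.56 in 35S::KLU, against 11.68, 11.73 and 11.95 in WT (difference -0.14, adjusted p = 0.42). RPS12A (AT1G15930) had 11.48, 11.40 and 11.38 in 35S::KLU, against 11.47, 11.60 and 11.63 in WT (difference -0.15, adjusted p = 0.29). RPS10C (AT5G52650) had 11.34, 11.33 and 11.25 in 35S::KLU, against 11.37, 11.39 and 11.63 in WT (difference -0.16, adjusted p = 0.35). The genotypes overlapped for RPS7A, RPS2C and RPS12A, and for RPS10C they did not. A further 13 members had differences from -0.29 to -0.17 and adjusted p from 0.17 to 0.53. They were RPS25B, RPS25E, RPS24A, RPS24B, RPS14A, RPS14B, RPS14C, RPS3aA, RPS3aB, RPS8A, RPS4A, RPS4B and RPS13B.

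**Figure D3:**
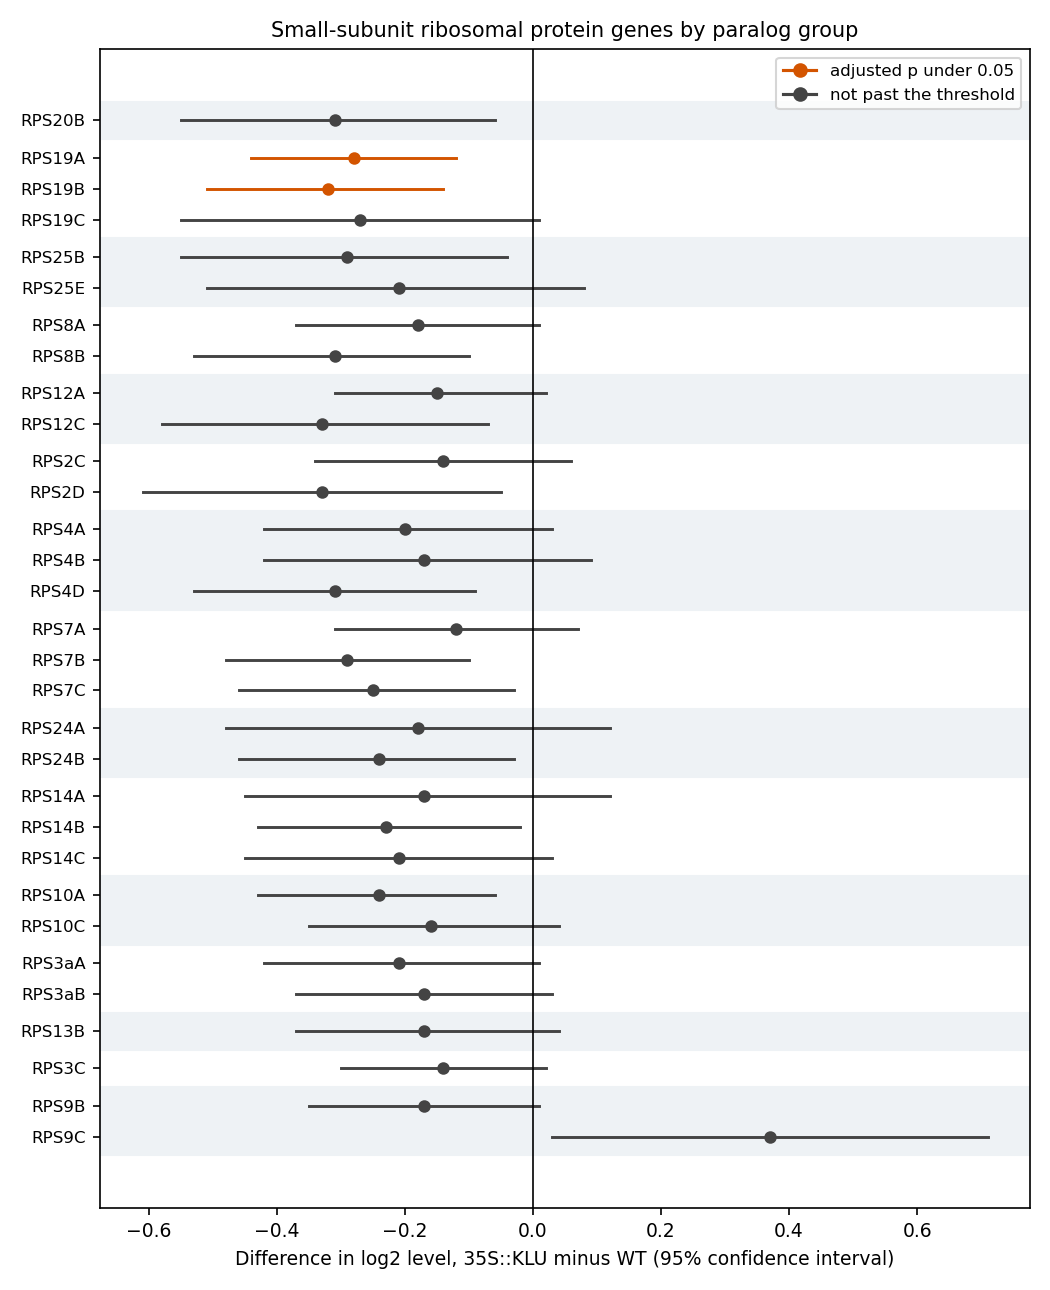
Difference in log2 level, 35S::KLU minus WT (x axis), with its 95% confidence interval, for 31 of the measured small-subunit genes, shaded by paralog group and ordered by the group's mean. Points lie left of 0 for every gene shown except RPS9C, and RPS19A and RPS19B, past the threshold, are coloured.

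Paralogs of 1 protein mostly had similar differences, but so did the measured small-subunit genes as a whole (quartiles -0.29 and -0.17). Whether paralogs were more alike than genes of different proteins was not tested. Of the 17 proteins, 16 had a mean difference below 0, among them RPS20 with -0.31 and RPS3 with -0.14, and RPS9 had 0.10. Among the 12 proteins with several measured loci the span between the highest and the lowest paralog had a median of 0.11, close to the median SE of a single gene (0.10). The span was 0.04 for RPS3a, 0.05 for RPS19, 0.06 for RPS14 and for RPS24, 0.18 for RPS7 and for RPS12, 0.19 for RPS2, and 0.54 for RPS9. No difference between paralogs was tested. Paralogs share sequence, so a probe set of one may also bind transcripts of another, which was not tested.

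Averaged over its loci, each protein gave 1 value per array, and the 35S::KLU arrays all lay below the WT arrays for 8 of the 17 proteins. Among single probe sets this held for 14.9% of all and for 23.2% of those with a mean level of at least 10. Most of the protein values are averages of several paralogs, so these shares are not a like measure. The deviations of RPS19 from its own mean were 0.00, -0.18 and -0.26 on the log2 scale in 35S::KLU, against 0.06, 0.14 and 0.24 in WT. Those of RPS14, a platform protein, were 0.06, -0.14 and -0.22 in 35S::KLU, against -0.06, 0.06 and 0.30 in WT. RPS14 therefore overlapped between genotypes through replicate 1 although its arrays ran over a range like that of RPS19.

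Arrays of 1 genotype differed as much as the genotypes did, and the genes moved together from array to array. With each gene set against its own mean over the 6 arrays, the median over the 33 genes was 0.02, -0.14 and -0.22 on the log2 scale in 35S::KLU replicates 1, 2 and 3, against 0.01, 0.08 and 0.26 in WT replicates 1, 2 and 3. These array medians averaged -0.12 ± 0.12 in 35S::KLU and 0.12 ± 0.13 in WT (SD, n = 3 each), a gap of 0.23 beside ranges of 0.24 within 35S::KLU and 0.25 within WT. The highest 35S::KLU array (0.02) met the lowest WT array (0.01), and the other arrays lay apart by genotype. Both of these arrays are labelled replicate 1, but the numbers were not used as pairs. The same medians over all 13355 genes stayed between -0.014 and 0.022 on every array, and over the 498 bright genes between -0.04 and 0.03. The 84 measured genes of the large subunit also varied by array, with a summed log2 level of 16.99 to 17.24 in 35S::KLU and 17.19 to 17.47 in WT. Of these AT3G16780, with the smallest p, had 9.28, 9.17 and 8.96 in 35S::KLU, against 9.45, 9.58 and 9.81 in WT. Within each genotype its arrays ran in the same order as the medians of the 33 genes. Across genotypes they did not, since its replicate 1 arrays lay apart (9.28 in 35S::KLU, 9.45 in WT) and its genotypes did not overlap.

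The order of the arrays was nearly the same for every gene. All 33 genes were highest in replicate 1 among the 35S::KLU arrays, and 30 were lowest in replicate 3. Among the WT arrays 32 were highest in replicate 3 and 26 were lowest in replicate 1. Replicate 3 of 35S::KLU lay below every WT array for 32 genes and replicate 2 for 30, but replicate 1 for 14. In the other direction, WT replicate 3 lay above every 35S::KLU array for 32 genes, replicate 2 for 22 and replicate 1 for 18. Genes on 1 array share its RNA, so the 33 genes are not independent replicates of this pattern. The median SD of a gene over 3 arrays was 0.12 in 35S::KLU and 0.15 in WT, beside 0.09 in each genotype over all genes.

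**Figure D4:**
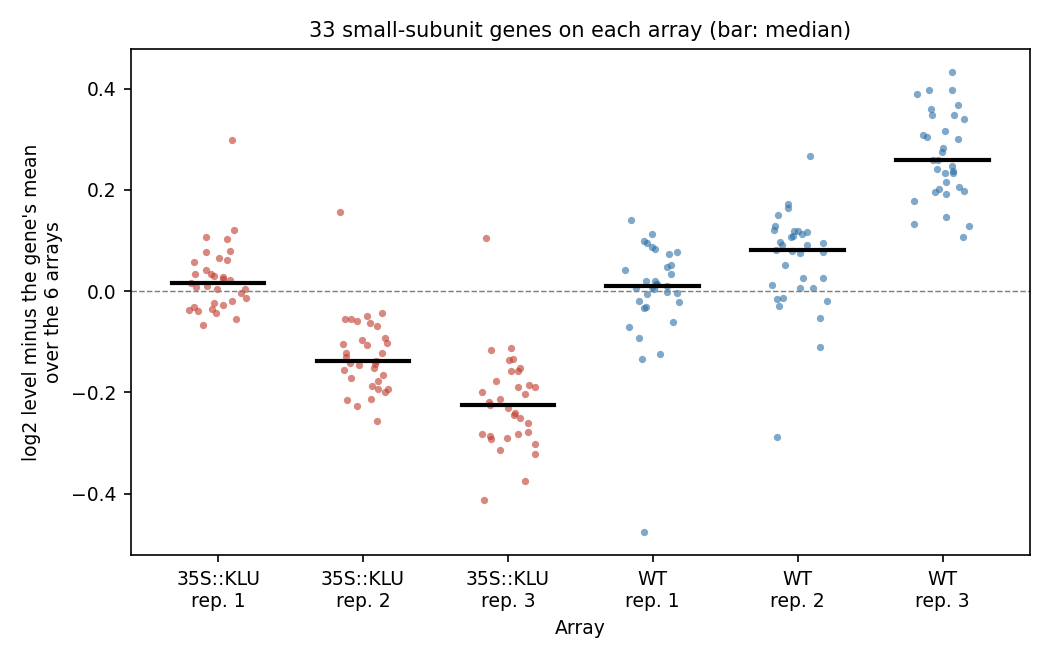
log2 level of each of the 33 small-subunit genes minus its mean over the 6 arrays (y axis), by array (x axis), with the median as a bar. Replicate 1 of 35S::KLU and replicate 1 of WT both sit near 0, at 0.02 and 0.01, while the other 35S::KLU arrays lie at -0.14 and -0.22 and the other WT arrays at 0.08 and 0.26.

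The median difference of -0.21 held its sign on leaving out any array, and its size depended on which array was left out. It was -0.15 without 35S::KLU replicate 3 and -0.14 without WT replicate 3, against -0.29 without 35S::KLU replicate 1 and -0.27 without WT replicate 1. Without replicate 2 it was -0.20 for 35S::KLU and -0.26 for WT. The 3′ minus 5′ control signal was 1.94, 1.89 and 1.94 in 35S::KLU replicates 1, 2 and 3, against 1.94, 1.94 and 1.90 in WT replicates 1, 2 and 3. Replicate 1 and replicate 3 of 35S::KLU had the same control signal, with small-subunit medians of 0.02 and -0.22. WT replicate 3, with a median of 0.26, had a lower control signal than WT replicates 1 and 2. A link between the control signal and these medians was not tested.

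Of the markers of other cells measured, 1 passed the threshold. Among genes of dividing cells and the meristem 5 of 24 were measured, with a summed log2 level of 8.97 to 9.12 in 35S::KLU and 9.17 to 9.38 in WT, so the genotypes did not overlap. Of these the helicase subunit gene PRL (MCM7) fell (difference -0.33, adjusted p = 0.041). PRL was the brightest of the 5, with means of 7.74 in 35S::KLU and 8.07 in WT, and so the largest part of the sum. AUR2, AUR1, AUR3 and the stem cell gene CLV3 differed by -0.18, -0.14, 0.05 and 0.09 and did not pass. CLV3 was at most 3.65 on any array, below the arrays' lower quartiles (4.06 to 4.11). Among root markers 3 of 7 were measured, with a summed level of 10.61 to 10.88 in 35S::KLU and 10.09 to 10.57 in WT. These ranges did not overlap either. The sum was nearly that of PYK10 alone, which had 10.57 to 10.85 in 35S::KLU and 10.02 to 10.52 in WT. PYK10 differed by 0.43 (adjusted p = 0.078), and the root hair expansins EXPA7 and EXPA18 by -0.17 and -0.07, with levels of at most 5.08. Among all single probe sets, the genotypes did not overlap with 35S::KLU below WT for 14.9% and above for 11.0%, which is not a like measure for sums. The part of either marker list in the small-subunit result was not tested. In RNA of whole shoots, fewer cells of a type and less RNA per cell cannot be told apart.

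In other parts of the translation machinery most genes lay below 0 too, with no member past the threshold outside the large subunit. Of 37 further 40S loci, which include other loci of RPS15, RPS15a and RPS16, 15 were measured, 0 passed in limma, 3 were lower and 0 higher at an unadjusted p of 0.05, and 14 lay below 0 (median -0.11). Of these 15, 5 had mean levels below the lower quartile of every array, and 3 of those had differences within 0.02 of 0. Of the other 10, 9 lay below 0 (median -0.21). AT1G23410 was the lowest of them, with 6.12, 5.74 and 5.43 in 35S::KLU, against 6.22, 6.14 and 6.42 in WT (difference -0.50, SE 0.15, adjusted p = 0.087), and AT3G56340 differed by -0.26 (adjusted p = 0.15). The 6 probe sets paired with several genes that include listed loci had differences from -0.25 to -0.11, and 0 passed (lowest adjusted p = 0.16, 2 at an unadjusted p of 0.05). Of 132 loci for 60S proteins 84 were measured, 3 fell (3.57%, beside 4.27% of all probe sets), 0 rose and 80 lay below 0 (median -0.22). At an unadjusted p of 0.05, 36 of the 84 (42.9%) were lower and 0 higher, beside 12.4% and 9.3% of all probe sets. Those that fell were AT3G16780 (-0.48, adjusted p = 0.030), AT5G23900 (-0.34, adjusted p = 0.032) and AT3G13580 (-0.35, adjusted p = 0.046).

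Ribosome biogenesis factors assemble and trim the subunits in the nucleolus and cytoplasm. Of 24 listed 6 were measured, and all 6 lay below 0 (median -0.27), beside 55.5% of all genes. Of the 6, 3 had an unadjusted p under 0.05, all lower, beside 12.4% of all probe sets, and 0 passed. The 2 with the smallest p were AT5G41190, with 8.12, 8.07 and 7.75 in 35S::KLU, against 8.09, 8.49 and 8.50 in WT (difference -0.38, adjusted p = 0.12), and AT1G52930 (difference -0.41, adjusted p = 0.15). In AT5G41190 too, the highest 35S::KLU value (8.12) met the lowest WT value (8.09). Of 27 subunits of initiation factors that bind the 40S subunit 10 were measured, and 9 lay below 0 (median -0.17). At an unadjusted p of 0.05, 4 were lower and 1 higher, beside 12.4% and 9.3% of all probe sets, and 0 passed after adjustment. AT4G27130 was the exception in sign, with 8.19, 8.12 and 8.16 in 35S::KLU, against 7.74, 8.00 and 7.85 in WT (difference 0.29, SE 0.08, adjusted p = 0.062), and AT1G77840 differed by -0.25 (adjusted p = 0.11). Of 9 genes of the TOR and S6 kinase pathway, which controls ribosome synthesis and phosphorylates RPS6, 2 were measured. RAPTOR1 and RAPTOR2, for the subunit of the TOR complex that recruits substrates, differed by -0.13 (adjusted p = 0.47) and -0.10 (adjusted p = 0.49).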

How the data were processed

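RNA of shoots was hybridised to Affymetrix ATH1 arrays. The deposited table holds 1 log2 value per probe set and array, made by the authors with RMA (background correction, quantile normalization and probe summary), which the submitters' processing notes name with no version. The log2 scale was checked from the values (2.62 to 14.23). Arrays were matched to genotype by their labels. Of the probe sets, 64 Affymetrix controls were left out and the remaining 22746 all entered the test. Probe sets were paired with genes by the platform annotation, which gives 1 gene for 13513 of them, several for 503 and no gene for 8730. RefSeq's table for TAIR10.1 held 13436 of the 13513. A gene was represented by its brightest single-gene probe set. Depth does not apply to arrays, and 3 per genotype limit the precision.

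Differences were 35S::KLU minus WT, from a two-sided moderated test (eBayes of limma 3.58.1, R 4.3.3) on the 6 arrays, adjusted by Benjamini-Hochberg over all probe sets with a threshold of 0.05. The fit was tested on simulated data. Tables and figures used Python 3.11.15, pandas 2.3.3 and matplotlib 3.10.9. Values per array were given for genes past the threshold, their paralogs, the 12 smallest p and the 6 most positive differences, and otherwise up to 2 genes per list. The members and lists were chosen with earlier results of these data known. The 60S list was added after the files were seen. A list of nuclear genes for plastid and mitochondrial ribosomal proteins had 0 of 18 members measured. Promoter motifs were not analysed here. Of the members that the rule for single values names, 2 count in the totals, 1 of them past the threshold, but are not reported here singly. Same-numbered arrays did not deviate together (correlations of -0.205, 0.039 and -0.056), so replicate numbers were not used as pairs.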

Additional observations from a re-analysis of the deposited data

How the results depend on the processing

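The sign of each of the 33 genes and the median difference (-0.29 to -0.14) kept their direction under every alternative run. Calls did not, and the cause of each lost call was not tested beyond what the setting itself changes. Beside 3 small-subunit genes called lower, 0 were called after renewed quantile normalization, 1 after cyclic loess and 8 with array weights, 7 at an adjusted p of 0.1 and 0 at 0.01. Leaving out each array in turn gave 0 to 3 called lower and 0 to 1 called higher, the 1 being RPS9C without WT replicate 3. Of all 22746 probe sets, 1893 were called (922 higher and 971 lower), and 2978 with array weights (1545 of them lower). At an adjusted p of 0.1 they were 2763 (1470 lower), and at 0.01 they were 789 (391 lower). Leaving out 1 array gave 906 to 1962. The split was 1085 higher and 845 lower after cyclic loess and 1037 and 880 after quantile normalization. Restricting the features gave 242 calls among probe sets with a mean level of at least 10 and 836 with 1 probe set per gene. In the other translation lists 3 genes were called lower, 16 with array weights, 7 at an adjusted p of 0.1, 0 at 0.01 and 0 to 12 on leaving out 1 array. These counts leave out genes called higher, such as AT4G27130 at the threshold of 0.1 (limma adjusted p = 0.062). With the replicate number as a block, 0 small-subunit genes and 0 genes of the other lists were called, and the adjusted p of RPS19B was 0.088; the numbers are not known to pair samples, and not every array correlated best with its own number. The RPS9 mean was -0.17, not 0.10, among probe sets with a mean level of at least 10, because RPS9C is dimmer and left out there. Removing dim probe sets (mean under 6) left 4 called lower. No member had a second single-gene probe set, so averaging probe sets changed nothing.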
